A study of Chlorocebus sabaeus with 6 samples.

Results

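The genes described here are 10 transcription factors of the immediate early response: FOS, FOSB, FOSL1 and FOSL2 of the FOS family, JUN, JUNB and JUND of the JUN family, EGR1, MYC and ATF3. They were chosen by their human Ensembl protein IDs, by which the deposited table names part of its features. Each ID had 1 row, so the set holds 10 of the 51520 features of the table. All 10 passed the filter on low values, which asked for 1 FPKM or more on average across libraries. The table gives no gene symbols, and the symbols come with the chosen IDs. For 10 of the 10 genes, the chromosome named in the table was also the one that carries the gene of that symbol in the RefSeq gene table of the green monkey assembly mChlSab1.0.hap1.

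Poly-A RNA came from COS-1, an established line of kidney cells of the African green monkey (Chlorocebus sabaeus) that carries simian virus 40 sequences. The control group was 3 libraries of cells with no treatment, and the other group was 3 libraries of cells treated with lentivirus. The cells of all 6 libraries had 14 h of serum starvation followed by 90 min of epidermal growth factor (EGF) at 2 ng/ml, so every value is from the EGF-treated state and none from resting cells. The series title concerns SHOC2, a scaffold that promotes ERK1/2 signalling downstream of RAS. The labels say neither what the lentivirus carried nor whether the treated cells were a pool or a clone. Because the controls received no virus, the effect of the virus itself and that of its cargo cannot be told apart. The labels do not state that replicates came from separate cultures, and p-values then reflect only the library-to-library spread, possibly technical. Fewer transcripts per cell and fewer expressing cells cannot be told apart in such bulk RNA. Marker genes of the cell line were not analysed here.

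Immediate early genes are transcribed within minutes of growth factor stimulation, without the need for new protein synthesis, and many are targets of ERK1/2 signalling through ternary complex factors such as ELK1 that act with serum response factor. FOS and JUN family proteins pair through leucine zippers to form the AP-1 transcription factor. FOS and EGR1 messages are known for a brief pulse after stimulation, while FOSL1 is known as a later AP-1 gene whose expression depends on sustained ERK activity.

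Values are FPKM, fragments per kilobase of feature scaled to the size of the library, as the authors deposited them. The unit corrects for length, but where features overlap, the reads of 1 gene can be split among them, and the FPKM of a gene's own feature then understates its level. The feature held all the FPKM of its locus for FOS, FOSB, FOSL1, FOSL2 and EGR1, 69.0% for MYC, 54.5% for JUN, 51.1% for ATF3 and 5.62% for JUNB, while the locus of JUND holds other genes as well. These are shares of FPKM and not of reads, since a short feature reaches a given FPKM with fewer reads. The sum of FPKM was between 2094230 and 2206925 in the 6 libraries, and between 27605 and 27874 features per library reached 1 FPKM. Read numbers are not in the table, so depth is unknown.

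By the FPKM of their own features, the 10 genes formed 2 tiers in control cells. MYC was the most abundant, with a mean of 174 FPKM, followed by JUN at 77.7, JUND at 50.5 and ATF3 at 36.6 FPKM. The other 6 lay between 2.65 FPKM (FOSB) and 6.61 FPKM (FOSL2). The place of JUNB among them, at 4.63 FPKM, is uncertain, since its feature held 5.62% of the FPKM of its locus. That locus summed to 81.9 FPKM, against 72.3 for the ATF3 locus and 143 for the JUN locus. Such sums can grow with the number of short features, 15 in the JUNB locus against 3 and 2, so they do not rank these loci. The place of JUND is uncertain too: the monkey transcript JK107765.1, 136 bases long and within the JUND feature, stood at 452 FPKM in control. By their own features FOS and EGR1, the best known of the early genes, were among the low ones, at 3.24 and 4.05 FPKM. A 90-base feature 654 bases from EGR1 stood at 155 FPKM in control, and whether it belongs to EGR1 was not tested. The lowest library of each of MYC, JUN, JUND, ATF3 and FOSL2 exceeded the highest library of the next gene in that order. JUNB, EGR1, FOSL1 and FOS overlapped with their neighbours in the order, and FOSB stood below FOS. Among all tested features, MYC stood at the 91.1st percentile of mean level, JUN at the 87.3rd, JUND at the 79.8th and ATF3 at the 75.4th. FOSL1 and FOSB were at the 15.5th and 15.7th.

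In lentivirus-treated cells the order changed at the top and at the bottom. JUN, at a mean of 90.4 FPKM, stood above MYC, at 74.2 FPKM, in 3 of 3 libraries, whereas MYC stood above JUN in 3 of 3 control libraries. The JUN to MYC ratio of FPKM was 0.46, 0.462 and 0.416 in the control libraries and 1.22, 1.18 and 1.26 in the treated ones. The summed loci gave the same order, with means of 252 FPKM for MYC and 143 for JUN in control and 108 and 165 FPKM in treated libraries. Sums over features of different lengths are not strictly comparable between loci. FOSL1 was the lowest of the 10 at 1.57 FPKM, next to EGR1 at 2.32 and FOSB at 2.35 FPKM, and the libraries of these last 3 overlapped with their neighbours in the order. By their own features, JUND, ATF3, FOSL2 and JUNB kept ranks 3 to 6.

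**Figure D1:**
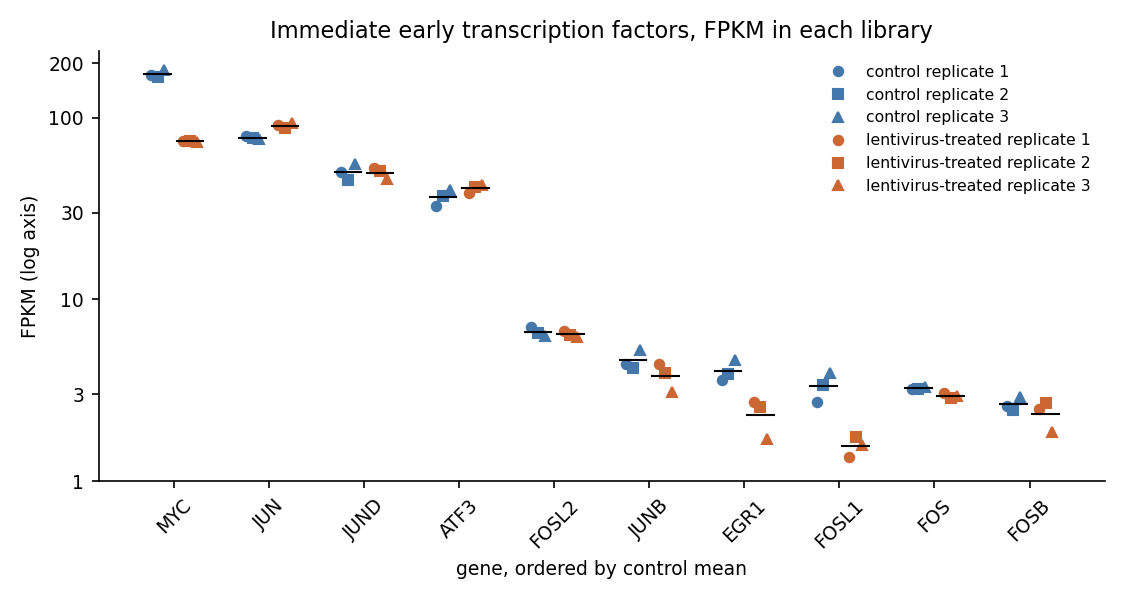
FPKM of each gene (log axis) in the 3 control and 3 lentivirus-treated libraries; each point is 1 library, its shape gives the replicate number and the black line is the group mean. MYC falls from a control mean of 174 to 74.2 FPKM and passes below JUN. FOSL1, EGR1 and, by a small margin, FOS are lower in every treated library than in any control, and JUN is higher. For the other genes the groups overlap.

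The main comparison asked which of these genes differed between lentivirus-treated and control cells after EGF. It was tested with limma on log2(FPKM + 1) over all 28434 features that passed the filter, and a feature was called at a Benjamini-Hochberg adjusted p under 0.05. MYC and FOSL1 fell, JUN rose, and 7 of the 10 were not called. Of all tested features 6.48% were called, 2.89% as higher and 3.59% as lower. The median log2 change was -0.12 over the 10 genes and -0.001 over all tested features, and 8 of the 10 changes were negative, against 50.1% of all features. The median absolute change was 0.19 for the 10 genes and 0.16 for all features. The groups did not overlap in 5 of the 10 genes (MYC, FOSL1, EGR1, JUN and FOS), against 31.6% of all tested features.

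Overlapping features of the table can share the reads of 1 gene, so they were also summed to loci, and the 16072 loci that passed the same filter were tested in the same way. Loci were called more often than features, 19.5% of all, with 8.88% called as higher and 10.6% as lower. Of the 10 loci that hold the genes, 4 were called: those of MYC, FOSL1 and EGR1 as lower and that of JUN as higher. FOS, FOSB, FOSL1, FOSL2 and EGR1 overlap no other feature, so their locus values are the same numbers and no second measurement. They were tested among fewer rows, and limma draws on all tested rows for the error. The SE of FOSL1 was thus 0.142 as a feature and 0.127 as a locus. The Benjamini-Hochberg adjustment is also less strict where a larger share of all rows is called, as among loci.

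**Figure D2:**
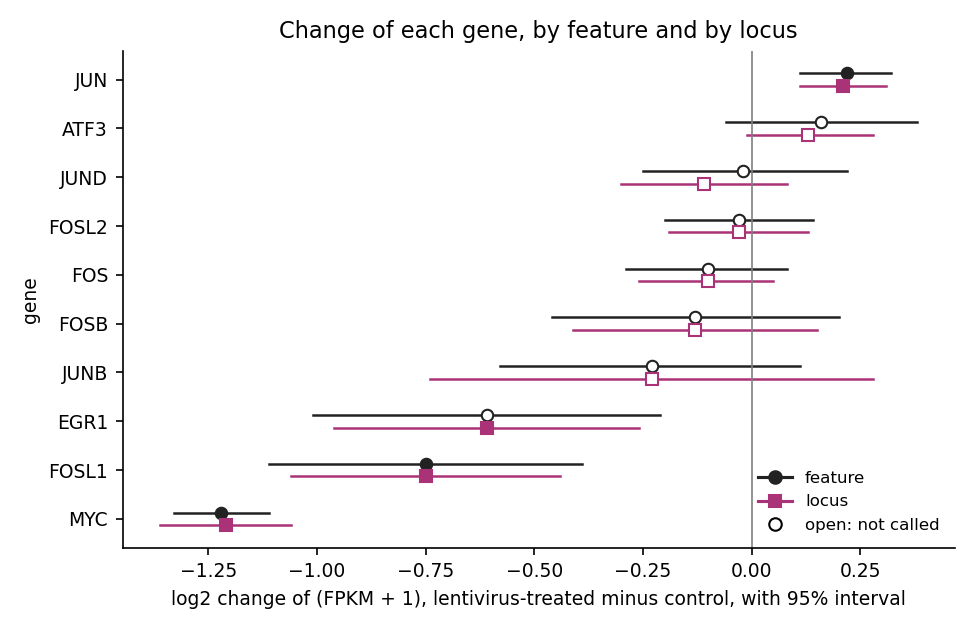
Log2 change of each gene, lentivirus-treated minus control, on the log2(FPKM + 1) scale, from the test of features (black circles) and of loci (purple squares), with 95% intervals from limma; filled symbols were called. The interval of MYC runs from -1.33 to -1.11 for the feature, while those of JUND, FOSL2, FOS, FOSB, JUNB and ATF3 include 0 at both levels.

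MYC, a basic helix-loop-helix factor that binds DNA with MAX and drives growth and metabolism genes, had the largest change of the 10. Its feature (ENSP00000367207_1, chromosome 8, 122285193 to 122287906 in the deposited table, whose genome build is not given in the sources used here) stood at 172, 168 and 183 FPKM in the control libraries and at 74.3, 74.5 and 73.9 FPKM in the lentivirus-treated ones. The treated libraries were nearly identical and all far below the controls. The mean dropped from 174 ± 7.71 FPKM to 74.2 ± 0.314 (SD, n = 3 each), which is 2.35-fold lower. The log2 change was -1.22 (SE 0.044, limma adjusted p = 0.00252). Among the 1021 features called as lower, 49 had a change at least as large, MYC included. Without any 1 library, MYC kept its call, with changes of -1.25 to -1.19 and limma adjusted p of 0.00916 to 0.0275.

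A second reading of the MYC locus moved with the first. The monkey transcript feature JK106061.1 overlaps the start of the MYC feature in table coordinates and holds 31.0% of the FPKM of the locus. It stood at 82.3, 63.8 and 87.1 FPKM in control and 35.9, 35.6 and 31.1 FPKM in treated libraries. Its fall was 2.27-fold, with a limma adjusted p of 0.0178. The 2 features share a stretch of sequence, so they are not independent. Summed, the locus had 252 ± 19.3 FPKM in control and 108 ± 3.03 in treated libraries (SD, n = 3) and fell by 1.21 on the log2 scale (limma adjusted p = 6.12e-04). A 68-base feature 416 bases beyond the MYC feature, looked at after its values were seen, was not called, with 24.8 ± 13.5 FPKM in control and 44.9 ± 22.5 in treated libraries (limma adjusted p = 0.385).

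MYC also weighed most in the summed level of the 10 genes. It made up 48.1%, 47.7% and 48.0% of their FPKM in the control libraries and 26.8%, 27.1% and 27.1% in the treated ones. The sum of all 10 was 352 to 381 FPKM in control and 273 to 277 FPKM in treated libraries.

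In the FOS family, FOSL1 fell and the other 3 genes were not called. FOS family proteins do not form stable pairs with one another and bind DNA as partners of JUN proteins. FOSL1, also called FRA1, lacks the strong activation domain of FOS. Its feature (ENSP00000310170_1, chromosome 1, 8356835 to 8364915) had 2.71, 3.38 and 3.96 FPKM in control and 1.36, 1.76 and 1.59 FPKM in treated libraries. The control libraries spread more than the treated ones, and the groups did not overlap. The mean was 3.35 ± 0.628 FPKM in control and 2.13-fold lower, 1.57 ± 0.204, in treated libraries (SD, n = 3). The log2 change was -0.75 (SE 0.142, limma adjusted p = 0.045). On the log2(FPKM + 1) scale the change of so low a gene is understated, and at a pseudocount of 0.1 it was -1.04.

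The call of FOSL1 was close to the threshold among features and steadier among loci. Leaving out any 1 of the 6 libraries ended the feature call, with limma adjusted p of 0.0737 to 0.125 and changes of -0.86 to -0.65. These fits called 48 to 118 of all features, against 1842 with every library. The test among loci used the same FOSL1 values with a smaller SE of 0.127, so it adds no FOSL1 data. There FOSL1 was called with all libraries (limma adjusted p = 0.0123) and in each of the 6 fits that left out 1 (0.0175 to 0.042). Those 6 fits still called 1444 to 2229 of all loci, against 3134 with every library, and the adjustment depends on that number.

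FOS (ENSP00000306245_1, chromosome 24, 52497664 to 52500351), the prototype immediate early gene, had 3.23, 3.22 and 3.28 FPKM in control and 3.07, 2.85 and 2.93 FPKM in treated libraries. The groups did not overlap, but the treated mean was 91.1% of the control mean. The log2 change of -0.10, with a 95% interval from -0.29 to 0.08, was not called (limma adjusted p = 0.455). FOSB (ENSP00000245919_1, chromosome 6, 38917555 to 38921967), whose shorter splice form is known as delta FosB, had 2.58, 2.46 and 2.91 FPKM in control and 2.48, 2.69 and 1.86 FPKM in treated libraries. Its groups overlapped, and the log2 change was -0.13 with an interval from -0.46 to 0.20 (limma adjusted p = 0.597). FOSL2 (ENSP00000264716_1, chromosome 14, 79201651 to 79221449), also called FRA2, had 7.03, 6.53 and 6.27 FPKM in control and 6.71, 6.40 and 6.20 FPKM in treated libraries. Its interval was the tightest of these 3 genes, from -0.20 to 0.14 around -0.03 (limma adjusted p = 0.822).

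The make-up of the FOS family message was then compared within each library. The summed FPKM of the 4 genes was 15.5, 15.6 and 16.4 in control and 13.6, 13.7 and 12.6 in treated libraries. FOSL1 held 17.4%, 21.7% and 24.1% of this sum in control and 9.96%, 12.9% and 12.7% in treated libraries. Its mean share was 21.1% ± 3.40 in control and 11.8% ± 1.62 in treated libraries (SD, n = 3). FOSL2, the main FOS family message in both groups, held 41.8% ± 3.50 in control and 48.4% ± 1.47 in treated libraries. The ratio of FOSL2 to FOSL1 ran from 1.58 to 2.59 in control and from 3.63 to 4.95 in treated libraries. The share of FOS was 20.5% ± 0.447 in control and 22.2% ± 1.27 in treated libraries, and that of FOSB overlapped between groups. Within-library shares do not depend on scaling between libraries, but a lower share of 1 gene raises those of the others.

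In the JUN family, JUN rose slightly and JUNB and JUND were not called. JUN is the AP-1 partner that can also pair with itself, and its activity is raised by JNK kinases. Its feature (ENSP00000360266_1, chromosome 20, 74205541 to 74206543) had 79.4, 77.5 and 76.1 FPKM in control and 90.7, 87.5 and 93.1 FPKM in treated libraries. Every treated library was above every control. The mean was 77.7 ± 1.63 FPKM in control and 1.16-fold higher, 90.4 ± 2.77, in treated libraries (SD, n = 3). The log2 change was 0.22 (SE 0.041, limma adjusted p = 0.0442). The monkey transcript feature JK112359.1, which overlaps one end of JUN and holds 45.5% of the FPKM of the locus, was 65.2 ± 3.31 in control and 75.0 ± 3.39 FPKM in treated libraries and was not called (limma adjusted p = 0.109). The locus as a whole had 143 ± 2.44 FPKM in control and 165 ± 5.80 in treated libraries and rose by 0.21 on the log2 scale (limma adjusted p = 0.0181).

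The chromosome of JUN was shifted in the same direction. The other 1148 tested loci of chromosome 20 had a median log2 change of 0.10, and 70.3% of them were positive. When the median deviation of each chromosome was subtracted in each library, the change of JUN was 0.11 and the call was lost (limma adjusted p = 0.214 among features and 0.158 among loci). Without any 1 library the feature call was also lost, with limma adjusted p of 0.102 to 0.136 and changes of 0.20 to 0.24. The locus call was lost without control replicate 1, control replicate 3 or lentivirus replicate 3 (limma adjusted p = 0.0585, 0.0615 and 0.0536).

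JUNB (ENSP00000303315_1, chromosome 6, 11479406 to 11480447), a weaker activator than JUN that can oppose it, had 4.44, 4.21 and 5.25 FPKM in control and 4.41, 3.92 and 3.08 FPKM in treated libraries. The groups overlapped, and the log2 change was -0.23 with an interval from -0.58 to 0.11 (limma adjusted p = 0.369). The JUNB feature held 5.62% of the FPKM of its locus, which is not a share of reads. The locus contains 14 other features, all of them monkey transcripts, within a span of 1.82 kb. Of these, 12 were tested, with 0 called by limma and 0 at an unadjusted p under 0.05. Several of these moved between almost 0 and over 5 FPKM from library to library, and the summed locus was 81.9 ± 24.3 FPKM in control and 68.3 ± 11.3 in treated libraries (SD, n = 3). Its interval, from -0.74 to 0.28, was therefore wider than that of the JUNB feature alone.

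JUND (ENSP00000252818_1, chromosome 6, 16755246 to 16756290), the JUN family member known for steady expression without stimulation, had 50.1, 45.5 and 55.8 FPKM in control and 52.6, 51.2 and 45.8 FPKM in treated libraries. The groups overlapped fully, with a log2 change of -0.02 and an interval from -0.25 to 0.22 (limma adjusted p = 0.944). A feature named by another human protein, 180024 bases long, spans JUND and joins it to a 356-kb locus of 36 features, of which 12 others are named by human protein IDs. That long feature was itself called, at 15.3 ± 0.236 FPKM in control and 10.1 ± 1.28 in treated libraries (SD, n = 3, limma adjusted p = 0.036). The locus value (log2 change -0.11, limma adjusted p = 0.385) is therefore no measure of JUND. The monkey transcript feature JK107765.1, 136 bases long and within the JUND feature, holds 31.0% of the FPKM of this locus. It stood at 452 ± 14.1 FPKM in control and 417 ± 96.8 in treated libraries and was not called (limma adjusted p = 0.663). The JUND feature may therefore hold only part of the JUND reads.

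By the FPKM of their own features, JUN made up most of the JUN family sum in both groups. The JUND feature, like that of JUNB, may hold only part of the reads of its gene, so this majority is uncertain. The share of JUN in the summed FPKM of the 3 genes was 59.3%, 60.9% and 55.5% in control and 61.4%, 61.4% and 65.5% in treated libraries. The share of the JUNB feature, which may hold only part of the JUNB reads, was 3.48% ± 0.297 in control and 2.64% ± 0.419 in treated libraries, and that of JUND was 38.0% ± 2.50 and 34.6% ± 2.00 (SD, n = 3). Over the 7 shares of both families, the groups did not overlap for FOS, FOSL1, FOSL2, JUN and JUNB, each with a two-sided exact permutation p of 0.10, the smallest that 3 against 3 libraries allow (0.14 adjusted over the 7 shares). The margin was very narrow for FOS, whose share rounded to 20.8% in both control replicate 1 and lentivirus replicate 2. With locus sums in place of features the JUNB shares of the groups overlapped (difference -0.564 percentage points, exact permutation p = 0.80). The exact permutation p was 0.20 for JUND and 0.60 for FOSB, 0.233 and 0.60 when adjusted over the 7 shares. By their own features, the summed JUN family exceeded the summed FOS family 8.16-fold to 8.62-fold in control and 10.4-fold to 11.3-fold in treated libraries.

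**Figure D3:**
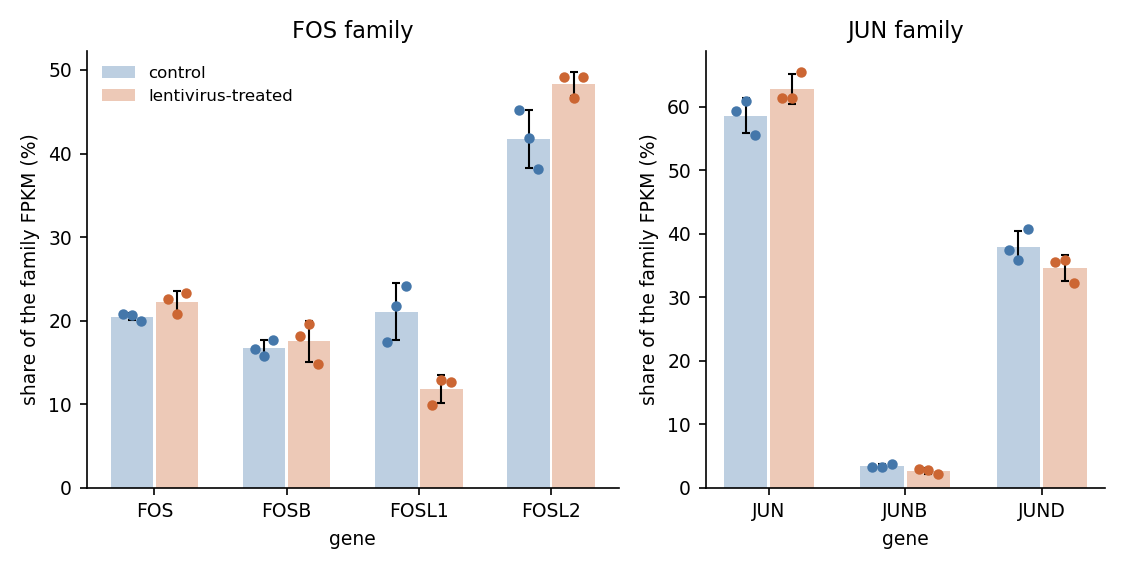
Share of each gene in the summed FPKM of its family (percent) in control (blue) and lentivirus-treated (orange) libraries; bars are means, error bars are SD and points are the 3 libraries of a group. FOSL1 drops from a mean of 21.1% to 11.8% of the FOS family. By the FPKM of their own features, FOSL2 and JUN remain the largest members of their families.

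EGR1 is a zinc finger factor that binds GC-rich sites and a well known target of ERK1/2 signalling. Its feature (ENSP00000239938_1, chromosome 23, 41140064 to 41142371) had 3.61, 3.87 and 4.67 FPKM in control and 2.71, 2.55 and 1.71 FPKM in treated libraries. Every treated library was below every control, with means of 4.05 ± 0.554 and 2.32 ± 0.535 FPKM (SD, n = 3), so the treated mean was 57.3% of the control mean. The log2 change of -0.61, with an interval from -1.01 to -0.21, was not called among features (limma adjusted p = 0.086). Among loci the same values had an SE of 0.145, against 0.16 among features, since limma draws on all tested rows for the error. The Benjamini-Hochberg adjustment differed too, since 19.5% of all loci were called, against 6.48% of all features. Among loci the change was called (limma adjusted p = 0.033). That call was lost without any 1 library except lentivirus replicate 1, with limma adjusted p of 0.06 to 0.0997 in the 5 fits that lost it, and with no filter on low values (limma adjusted p = 0.0549). A 90-base feature 654 bases from the end of EGR1 in the table, looked at after its values were seen, had 175, 146 and 143 FPKM in control and 91.7, 115 and 149 FPKM in treated libraries. Its groups overlapped and it was not called (limma adjusted p = 0.273).

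ATF3 is a leucine zipper factor of the ATF/CREB family that is induced by stress as well as by growth factors and can pair with JUN. Its feature (ENSP00000344352_1, chromosome 25, 16911539 to 16916038) had 32.7, 37.2 and 39.9 FPKM in control and 38.5, 41.6 and 42.6 FPKM in treated libraries. The groups overlapped, with a log2 change of 0.16 and an interval from -0.06 to 0.38 (limma adjusted p = 0.333). Of the 2 monkey transcripts in its locus, one had a log2 change of 0.24 and the other of -0.13, and neither was called (limma adjusted p = 0.202 and 0.619). The summed locus was 72.3 ± 3.76 FPKM in control and 79.4 ± 4.33 in treated libraries (limma adjusted p = 0.17).

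Some chromosomes differed between the groups along much of their length, so each gene was set beside its chromosome. The median log2 change of the other tested loci was -0.09 on chromosome 8, which carries MYC, and -0.01 over the 20 loci nearest to MYC. It was -0.03 on chromosome 1, with FOSL1, and 0.08 on chromosome 23, with EGR1, so these 2 genes lay far below their chromosomes. FOS lay below chromosome 24, whose other loci had a median of 0.09, and FOSL2 above chromosome 14, with -0.10. Chromosome 6, which carries FOSB, JUNB and JUND, had a median of -0.05, and chromosome 25, with ATF3, one of -0.04. After subtraction of the chromosome median in each library, MYC changed by -1.14 (limma adjusted p = 0.00251) and kept its call. FOSL1 changed by -0.72 and lost its feature call narrowly (limma adjusted p = 0.0582). EGR1 changed by -0.69 (limma adjusted p = 0.0788). FOS changed by -0.21 and FOSL2 by 0.09, neither of them called (limma adjusted p = 0.181 and 0.526).

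**Figure D4:**
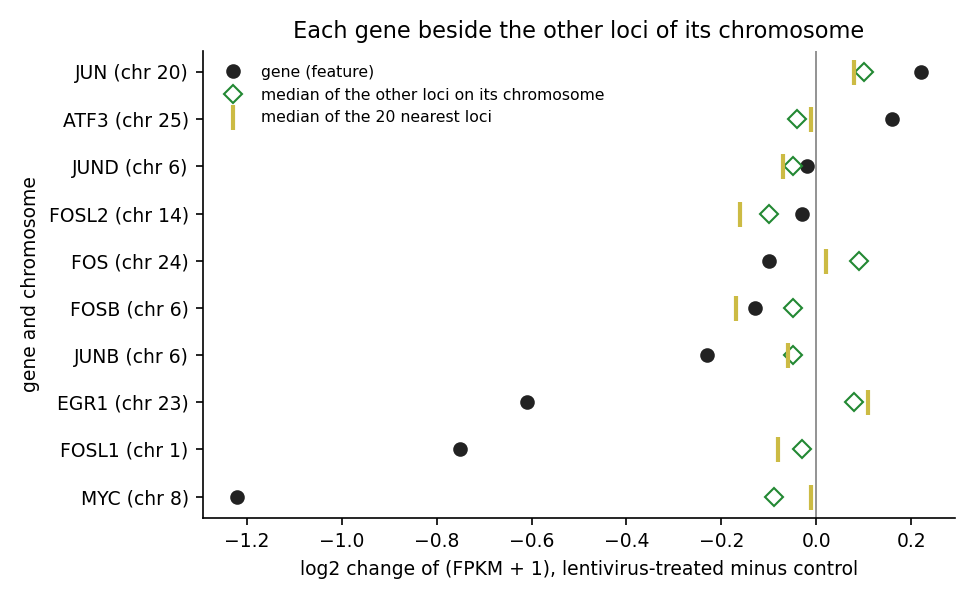
Log2 change of each gene, lentivirus-treated minus control (black points), beside the median change of the other tested loci on its chromosome (green diamonds) and of the 20 nearest tested loci (yellow bars). MYC, FOSL1 and EGR1 lie far from both medians, whereas JUN, at 0.22, lies above a chromosome 20 median of 0.10.

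Within each group, some libraries held the extreme values of these genes more often than others. Control replicate 3 was the highest control library in 8 of the 10 genes, all but FOSL2 and JUN, and in 33.8% of all tested features. Lentivirus replicate 3 was the lowest treated library in 6 of the 10 (FOSB, FOSL2, JUNB, JUND, EGR1 and MYC) and in 38.1% of all tested features. Control replicate 2 was the lowest control library in 5 of the 10 genes, and in 37.0% of all tested features. Lentivirus replicate 1 was the highest treated library in 5 of the 10, and in 36.1% of all tested features. Control replicate 3 and lentivirus replicate 3 were also the libraries with the highest and the lowest sum of FPKM over all features, 2206925 and 2094230. Without control replicate 3 the change of EGR1 was -0.53 and that of FOSL1 -0.65, and without lentivirus replicate 3 they were -0.47 and -0.76. The part of these libraries in the results was not tested further.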

How the data were processed

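The authors deposited 1 table of FPKM values with 1 column per library. CASAVA, Bowtie2 2.1.0.0, TopHat2 2.0.10, Cuffdiff and Cufflinks 2.1.1 are named in the submitters' processing notes. The role of each tool, the build, the strand setting and library scaling were not given in the sources used here. FPKM keeps no counts, so no counting error could be given.

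Rows averaging 1 FPKM or more over the 6 libraries were analysed on log2(FPKM + 1) in R 4.3.3 with limma 3.58.1 (lmFit and eBayes, trend = TRUE). Group was the only term, and Benjamini-Hochberg adjustment covered all 28434 tested features. Features that overlap in position were summed to 20565 loci and tested alike. Shares within a family were compared by two-sided exact permutation tests (scipy 1.17.1). Alternatives were pseudocounts of 0.1 and 5, no filter, a minimum mean of 5 FPKM, 3 scalings (median ratio, quantile, TPM), leaving out each library, and a replicate block. Subtraction of the chromosome median (chromosomes with at least 50 tested rows) was added after the data were seen. The scripts were tested on simulated data. The genes, lists and tests were chosen with earlier results of these data known. All 10 genes are named whatever their values. Overlapping features are named only where they hold over 25% of a locus, and those within 1000 bases were looked at after their values were seen. A list of 29 further pathway genes was not analysed here, because 0 feature IDs matched the RefSeq gene table.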

Additional observations from a re-analysis of the deposited data

How the results depend on the processing

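Of the 10 genes, 3 were called as features (FOSL1, JUN, MYC) and 4 as loci, against 6.48% of all features and 19.5% of all loci. Leaving out 1 library left 1 feature call, MYC, in each of the 6 fits, and 2 to 4 locus calls. Of all rows, these fits called 0.169% to 0.415% of features and 8.98% to 13.9% of loci. A replicate block in the model left limma with 0 of the 10 features, MYC included (limma adjusted p = 0.121), and 2 of the 10 loci, MYC and FOSL1. That fit called 0 of all features, 6084 of them at an unadjusted limma p under 0.05 (5 of the 10 genes), and 1774 loci. Deviations of same-numbered libraries from their group means correlated at r = 0.131, -0.0284 and 0.00276 over features. Those of control replicate 2 and lentivirus replicate 3 correlated at 0.128. With 3 libraries per group these values cannot decide whether replicates were paired, and the labels do not state it. With the chromosome median subtracted, 1 of the 10 features was called, against 4.0% of all features. At a minimum mean of 5 FPKM, which leaves 6 of the 10 loci, 2 loci were called, against 24.7% of all loci. With no filter the feature FOSL1 was not called (limma adjusted p = 0.107), nor was the EGR1 locus (limma adjusted p = 0.0549), and on the TPM scale the feature JUN was not called (limma adjusted p = 0.056). Reversals of direction occurred only in genes and shares not called: FOSL2, as feature and locus, ran from -0.065 to 0.006 without 1 library and was 0.085 (feature) and 0.081 (locus) with the chromosome median subtracted; JUND, as a feature, was 0.006 on the TPM scale, 0.052 with the chromosome median subtracted, and -0.086 to 0.058 without 1 library. The lentivirus minus control difference in FOSB share, 0.87 percentage points, ran from -0.165 to 2.24 without 1 library. With locus sums the JUN family shares have another base, since the JUND locus holds other genes, and the JUNB shares of the groups then overlapped (exact permutation p = 0.80). Summing rows of 1 ID was not run, as each ID had 1 row. Causes were not tested.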
